A study of Mus musculus with 13 samples.

Results

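The genes described here are 8 that encode proteins of the subcortical maternal complex or proteins bound to it: Nlrp5, Ooep, Tle6, Khdc3, Padi6, Nlrp2, Nlrp4f and Zbed3. They were chosen by symbol, with no cut on their values but with earlier results of these data known. All 8 were found among the 18939 genes with counts and the 49686 genes with FPKM values (counts scaled by transcript length and library size). The study injected mouse germinal vesicle (GV) oocytes with mRNA for FBL-GFP, a fluorescent fibrillarin that marks the nucleolus, and sorted the live oocytes by its pattern into surrounded nucleolus (SN) and non-surrounded nucleolus (NSN) oocytes. Single oocytes were then sequenced at GV or, after release, at metaphase II (MII). The question was how the types differ in their transcripts, and how these change as each type matures.

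The 13 libraries were 3 of SN GV oocytes, 3 of NSN GV oocytes, 4 of MII oocytes grown from SN GV oocytes (SN-MII) and 3 of MII oocytes grown from NSN GV oocytes (NSN-MII). All 4 groups shared the same handling: C57BL/6 females of 3 to 4 weeks were primed with PMSG for 48 h, oocytes received FBL-GFP and H2B-mCherry mRNA, were held at GV by 10 μM Cilostamide for 6 h and had the zona pellucida removed before lysis. Every library is therefore from an injected oocyte, and MII oocytes matured in vitro. Each library is 1 oocyte. Nothing says which oocytes shared a female, so p-values measure the spread between these oocytes.

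The subcortical maternal complex lies under the surface of the oocyte and early embryo and is made from stored maternal mRNA. NLRP5 (also called MATER), OOEP (FLOPED) and TLE6 form its core, and KHDC3 (FILIA), PADI6, NLRP2, NLRP4F and ZBED3 are held to it. Loss of several of these proteins in the mother stops embryos in their first divisions. Transcription falls silent as the GV oocyte becomes SN and stays so through meiosis. During maturation many stored mRNAs are cleared, while others gain a longer poly(A) tail through a U-rich cytoplasmic polyadenylation element close to the AAUAAA signal.

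The ends of these mRNAs are shown for this background, as a description. One transcript per gene was read from GENCODE M21 (GRCm38, mm10), the longest coding transcript with a RefSeq counterpart. Its last 100 bases were searched on the sense strand for the polyadenylation elements TTTTAT and TTTTAAT and for the signals AATAAA and ATTAAA, and the 30 bases around the last signal are printed 5′ to 3′ with every such match in capitals.
Zbed3, chr13:95337805-95337834, + strand: ctccttttttttTTTTAATAAAcTTTTATt
Nlrp4f, chr13:65177132-65177161, - strand: ttgctgctgttttgtgTTTTATATTAAAga
Padi6, chr4:140727371-140727400, - strand: gtaaacaaattgccatagagccAATAAAgc
Tle6, chr10:81590917-81590946, - strand: gtgcagatcccgagttgcgtgtAATAAAac
Khdc3, chr9:73104399-73104428, + strand: caaacacaatttaaagtattctAATAAAaa
Nlrp5, chr7:23441877-23441906, + strand: ttggaggatgtagcaagaatgaAATAAAca
Nlrp2, chr7:5298562-5298591, - strand: tcgtatcactggtatattggggAATAAAag
All 7 windows lie in 3′ untranslated sequence. In Nlrp4f, TTTTAT starts 35 bases from the transcript's last base and runs straight into ATTAAA. In Zbed3, TTTTAAT overlaps AATAAA, which starts 21 bases from the end, and TTTTAT follows it. The other 5 windows and their whole last 100 bases hold a signal and neither element. Ooep held neither an element nor a signal at its GENCODE end, nor at the RefSeq end 794 bases upstream, so its window is not shown and its true end is uncertain.

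Total counts per library were between 7140416 and 8846287, and 11593 to 13342 genes had a count. SMART-seq2 starts cDNA from the poly(A) tail and copies it by PCR, and no molecular identifiers or strand marking are named. Counts are given as CPM, for which each library's total was multiplied by a factor that scales libraries to each other (TMM). The factors were 1.06 to 1.26 at GV and 0.799 to 1.01 at MII. CPM is therefore not the plain share of a library, and relative to that share it is higher at MII than at GV. A level is thus relative, so a change in the amount of an mRNA, in the amount of all other mRNA and in how well its tail is primed cannot be told apart. The 12 oocyte markers were above 0 in all libraries and summed to 21740 to 33670 CPM, but their levels ranged from Gdf9 (4136 to 11860 CPM) and H1foo (3194 to 13740 CPM) down to Zp3 (65.9 to 4681 CPM), Ddx4 (30.1 to 141 CPM) and Figla (0.899 to 47.8 CPM). The 18 cumulus and granulosa cell markers summed to 62.5 to 93.7 CPM in GV and 101 to 188.8 CPM in MII oocytes, of which Cyp19a1 made up 37.8 to 158 CPM, and Ptx3, Foxl2, Lhcgr and Fst were at 0 in all 13. They moved with stage, and their part in the results was not tested. The third NSN-MII library stood apart: it had the fewest genes with a count, and its 10 highest genes took 12.1% of its counts against 8.92% to 11.03% in the other MII libraries. Of the 7 MII libraries it was lowest for 6 of the 8 genes and highest for the other 2, whereas it was lowest for 22.4% and highest for 21.9% of all genes tested. Among the GV libraries the second NSN GV library had the fewest genes with a count (12699) and the highest share in its 10 highest genes (6.60% against 5.47% to 5.88%). It was lowest or highest of the 6 for 5 of the 8 genes and for 52.1% of all genes tested, where the third NSN-MII library was so for 44.3%. Results that rest on either library are given with and without it.

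At GV the 8 genes were among the most abundant transcripts of the oocyte. Per unit of length, in FPKM, Zbed3 led with 4000 ± 539 (SD, n = 6) and ranked 6 to 21 among all genes in the 6 GV libraries. Tle6 (2248 ± 283 FPKM) and Padi6 (1996 ± 292 FPKM) came next with overlapping libraries. Ooep followed with 935 ± 153 FPKM and overlapped neither Padi6 nor Nlrp4f. Its lowest library (779.5 FPKM) was below the highest of Khdc3 (961.7 FPKM). Nlrp4f (614 ± 102 FPKM), Nlrp5 (566 ± 105 FPKM) and Khdc3 (555 ± 248 FPKM) were not separated from each other, and Nlrp2 was lowest at 256 ± 21.3 FPKM. At MII this order was different. Zbed3 stood at 12892 ± 2527 FPKM (n = 7) and ranked 1 or 2 among all genes in every library. Nlrp4f followed at 795 ± 141 FPKM, above every library of the genes below it. Tle6 (318 ± 123 FPKM), Padi6 (255 ± 55.0 FPKM), Nlrp5 (245 ± 74.8 FPKM) and Ooep (182 ± 72.5 FPKM) overlapped each other in turn, and Nlrp2 (57.0 ± 33.9 FPKM) and Khdc3 (23.9 ± 13.1 FPKM) were lowest.

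The genes together took 2.24% to 2.73% of all counts at GV and 2.37% to 3.74% at MII, and these ranges overlap. Within this share the makeup was not the same. Zbed3 alone took 0.747% to 0.980% at GV and 1.91% to 3.33% at MII. The other 7 genes took 1.45% to 1.89% at GV and 0.407% to 0.515% at MII, with no overlap.

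**Figure D1:**
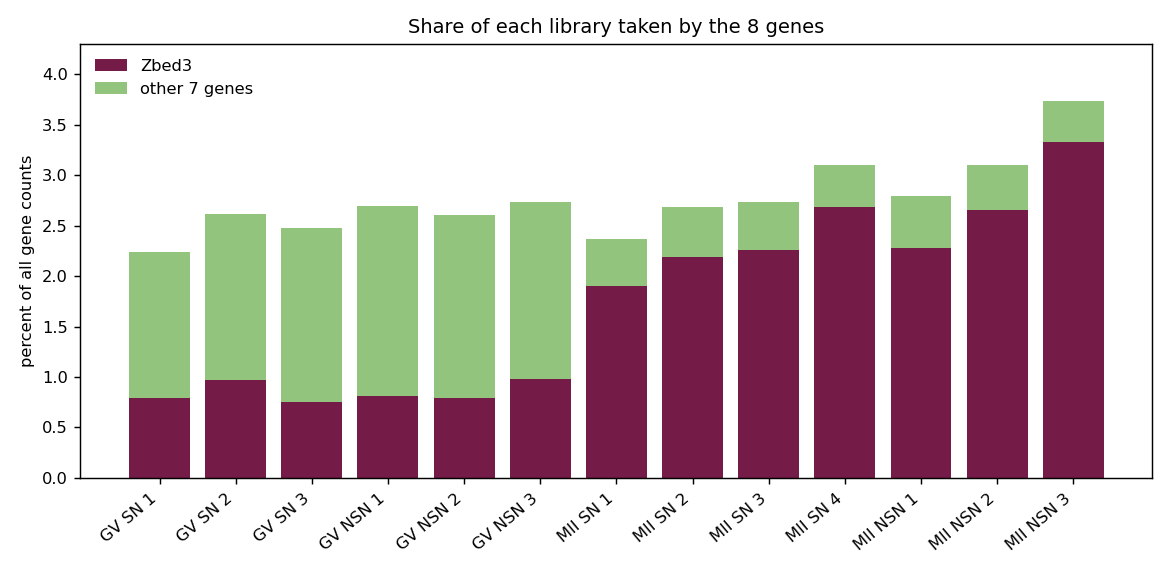
Percent of all gene counts taken by Zbed3 (lower part of each bar) and by the other 7 genes together (upper part), for each of the 13 single-oocyte libraries. Zbed3 takes 0.747% to 0.980% in GV and 1.91% to 3.33% in MII libraries, while the other 7 genes go from 1.45% to 1.89% down to 0.407% to 0.515%.

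MII oocytes of both types were compared with GV oocytes of both types by edgeR's quasi-likelihood test on 11375 genes, with Benjamini-Hochberg adjustment. Of the 8 genes, 6 were lower at MII, a call that 36.9% of all genes tested received, and 2 were higher, as were 31.7% of all genes. The 6 that fell were Khdc3, Padi6, Tle6, Ooep, Nlrp2 and Nlrp5, and the 2 that rose were Zbed3 and Nlrp4f. The GV and MII libraries did not overlap for 7 of the 8, against 47.4% of all genes, and the exception was Nlrp4f. The median log2 fold change was -2.13 over the 8 genes and -0.10 over all genes. Of the transcript ends shown above, those of Zbed3 and Nlrp4f held TTTTAT or TTTTAAT, and those of 5 genes that fell did not, with the end of Ooep uncertain. Over all genes tested with a transcript, 2189 of 11240 (19.5%) held an element in the last 100 bases. The share was 29.4% of the genes higher at MII, 10.4% of those lower and 20.1% of those not called. With an element in 2 of 8 genes, the share is close to that of all genes, and nothing particular to the 8 is read from it.

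Of the core genes, Nlrp5, the large scaffold of the complex, fell least. Its CPM was 1699 at the lowest, 1996 at the median and 2327 at the highest in GV oocytes, and 421, 1089 and 1142 in MII oocytes. Every MII library was below every GV library, and the change was -1.13 on the log2 scale (SE 0.19, adjusted p = 5.84e-05). Ooep, a small protein with a KH-like domain, had 1445, 1895 and 2715 CPM at GV and 232, 456 and 627 CPM at MII. It fell by 2.24 on the log2 scale (SE 0.23, adjusted p = 2.46e-07), 4.73-fold. Tle6, which belongs by sequence to the Groucho corepressors, had 2866, 3563 and 4243 CPM at GV and 140.3, 630.3 and 758 CPM at MII. All MII libraries were far below the lowest GV library, and Tle6 fell by 2.74 on the log2 scale (SE 0.27, adjusted p = 1.76e-07).

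Khdc3, a KH domain protein that joins the core, fell most of the 8. Its lowest, median and highest CPM were 419.7, 529 and 1008 at GV and 5.07, 35.2 and 50.1 at MII. It fell by 4.46 on the log2 scale, 22.0-fold (SE 0.43, adjusted p = 1.15e-07), and 426 of the 11375 genes fell further. The low value of the third NSN-MII oocyte rests on 30 reads, for which counting alone allows 20.2 to 42.8 (exact Poisson 95% interval, counting error only). Khdc3 also had the widest spread of the 8 among GV oocytes.

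Padi6, a peptidylarginine deiminase relative that the fibrous cytoplasmic lattices of the oocyte depend on, had the smallest p-value of the 8 and ranked 54 of all genes. It had 3721, 4568 and 5601 CPM at GV and 465, 669 and 803 CPM at MII. The MII libraries lay close together, and Padi6 fell by 2.86 on the log2 scale (SE 0.14, adjusted p = 5.57e-11). Nlrp2, an NLR protein with roles in imprinting and early embryos, had 781, 835 and 968 CPM at GV and 72.6, 175 and 406 CPM at MII. Its GV oocytes were alike and its MII oocytes were not, and it fell by 2.02 on the log2 scale (SE 0.27, adjusted p = 4.75e-06).

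Zbed3, an Axin-interacting protein that is held to the complex and placed under the cell surface, rose. Its CPM was 6389.9, 7293 and 9291 at GV and 20536, 24669 and 41717 at MII. The lowest MII oocyte was above the highest GV oocyte, and the log2 fold change was 1.86 (SE 0.17, adjusted p = 7.55e-08), 3.64-fold. Nlrp4f, an NLR protein of the oocyte cytoplasm, was the weakest call. It had 1127, 1613 and 2036.5 CPM at GV and 1549.95, 2076 and 3764 CPM at MII, so the stages overlapped. Its log2 fold change was 0.51 (SE 0.20, adjusted p = 0.0349). Without the third NSN-MII library it was 0.23 with an adjusted p = 0.155. The call was also lost without SN GV library 1 or 3 (adjusted p = 0.069 and 0.0802), NSN GV library 1 or 2 (0.0747 and 0.0846) or SN-MII library 1 or 4 (0.0549 and 0.0594). With plain library totals in place of TMM scaling, where the median of all genes was -0.39, the log2 fold change of Nlrp4f was 0.19 (adjusted p = 0.325). The other 7 genes kept their direction and their call in every fit.

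**Figure D2:**
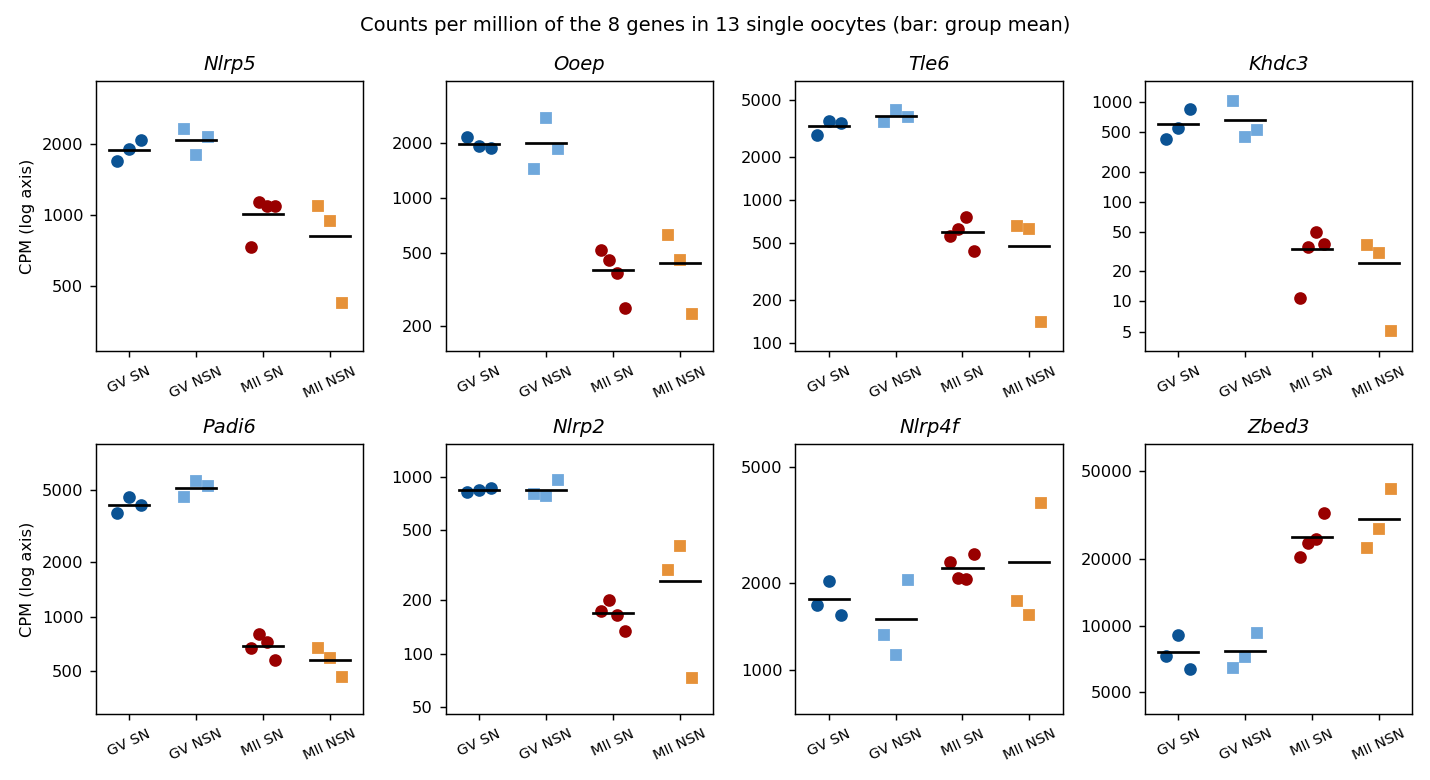
CPM (TMM-scaled, log axis) of the 8 genes in each single oocyte, with circles for SN and squares for NSN oocytes and a bar for the group mean. In 6 panels the points drop from GV to MII, Zbed3 climbs from at most 9291 to at least 20536 CPM, and Nlrp4f overlaps between the stages.

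The same change was then taken within each type, in the same fit. In SN oocytes 7 of the 8 genes were called (background 56.3% of genes), 6 lower and Zbed3 higher, and in NSN oocytes the same 7 were called (background 56.3%). The log2 fold changes in SN and NSN oocytes were -4.17 and -4.74 for Khdc3, -2.57 and -3.16 for Padi6 and -2.47 and -3.02 for Tle6. They were -2.30 and -2.19 for Ooep, -2.33 and -1.71 for Nlrp2 and -0.90 and -1.35 for Nlrp5, and 1.73 and 1.996 for Zbed3. Without the third NSN-MII library the NSN values were -4.32 for Khdc3, -3.04 for Padi6 and -2.60 for Tle6. They were then -1.90 for Ooep, -1.29 for Nlrp2, -1.07 for Nlrp5 and 1.69 for Zbed3, all still called. Nlrp4f passed in neither type: its log2 fold change was 0.36 in SN oocytes (adjusted p = 0.28) and 0.65 in NSN oocytes (adjusted p = 0.0702). In NSN oocytes Nlrp4f was called when the third NSN GV library (log2 fold change 0.95, adjusted p = 0.018), the first NSN-MII library (0.77, adjusted p = 0.0418) or the second NSN-MII library (0.88, adjusted p = 0.0245) was left out, and it was 0.11 without the third NSN-MII library (adjusted p = 0.69). Whether the types differ was tested by the interaction of type and stage. None of the 8 was called by edgeR, against 2 of 11375 genes (0.0176%), and DESeq2 called 39 genes and none of the 8. Padi6 alone of the 8 had an unadjusted p under 0.05: its log2 fold change was lower in NSN than in SN oocytes, with an interaction of -0.58 (SE 0.26, adjusted p = 0.906).

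**Figure D3:**
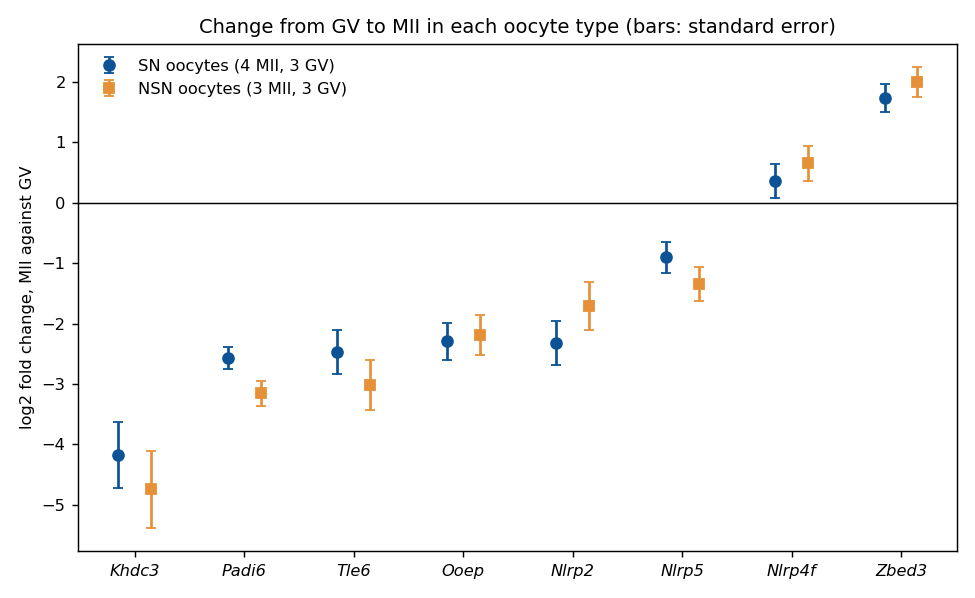
Log2 fold change from GV to MII with its standard error, for SN oocytes (circles, 4 MII against 3 GV) and NSN oocytes (squares, 3 against 3). The 6 genes to the left of Nlrp4f lie below 0 in both types, from -4.74 to -0.90, and no gene passed the test of a difference between types.

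Because the products work as a complex, each mRNA was also set against Nlrp5 within the same oocyte, a ratio that does not depend on how libraries are scaled. Per unit of length, in FPKM, the median GV oocyte held 3.83 times as much Tle6 and 3.51 times as much Padi6 as Nlrp5, and the median MII oocyte 1.30 and 1.01 times. The ratio of Ooep went from 1.602 to 0.778, that of Nlrp2 from 0.477 to 0.176 and that of Khdc3 from 0.833 to 0.0975. The ratio of Nlrp4f went the other way, from 1.10 to 2.77, and that of Zbed3 from 7.77 to 50.9. On counts, all 7 ratios differed between the stages by a two-sided exact permutation test over the 1716 splits of 13 oocytes. The log2 ratio at MII minus that at GV was -3.49 for Khdc3, -1.70 for Tle6, -1.69 for Padi6, 1.64 for Nlrp4f and 2.99 for Zbed3, each without overlap and with an exact p = 0.000583, the smallest the design allows (adjusted over the 7 ratios, 0.000816). It was -1.14 for Ooep (adjusted exact p = 0.00272) and -1.05 for Nlrp2 (adjusted exact p = 0.0035), whose stages overlapped. The 7 ratios share Nlrp5 and are not independent. Each holds the fall of Nlrp5 (log2 fold change -1.13) as well as the change of the gene set against it. How many of all genes would differ in their ratio to Nlrp5 was not computed. By CPM, 47.4% of all genes did not overlap between the stages. The number of ratios that differed is thus not read as particular to the 8. For Nlrp4f the gene's own log2 fold change was 0.51, a call that was lost in several fits. Its ratio is therefore not read as a rise of Nlrp4f itself. Without the third NSN-MII library the difference was 1.33 for Nlrp4f and 2.70 for Zbed3.

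**Figure D4:**
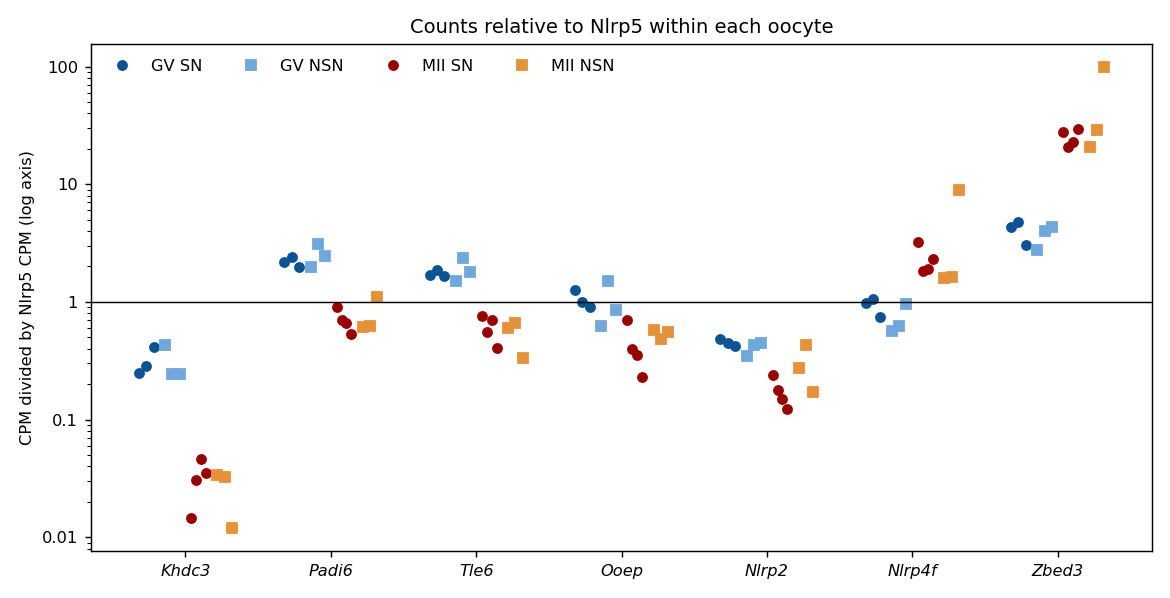
CPM of each gene divided by that of Nlrp5 in the same oocyte, on a log axis, for the 4 groups. Khdc3, Padi6, Tle6, Ooep and Nlrp2 move down from GV to MII, Nlrp4f and Zbed3 move up, and the highest Nlrp4f and Zbed3 points are the third NSN-MII oocyte.

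The types were next set against each other at the same stage. At GV none of the 8 genes was called, and edgeR called none of the 10839 genes tested (0%), with 190 at an unadjusted p under 0.05. DESeq2 also called 0 genes, and limma on FPKM called 1, which was none of the 8. The groups did not overlap for 1 of the 8 genes, Padi6, against 6.03% of all genes. Its CPM was 3721, 4563 and 4102 in the SN oocytes and 4573, 5601 and 5249 in the NSN oocytes. The lowest NSN oocyte was just above the highest SN oocyte, and the log2 fold change was 0.33 (SE 0.13, adjusted p = 1, with an unadjusted p under 0.05). For the other 7 genes the log2 difference lay between -0.21 (Nlrp4f, SE 0.22) and 0.24 (Tle6, SE 0.14). Khdc3 had the least certain value, 0.16 with an SE of 0.39, since its oocytes stood at 419.7, 540.1 and 855 CPM in SN and at 1008, 442 and 518 CPM in NSN. Without the second NSN GV library none of the 8 was called either, and the log2 difference of Ooep turned from 0.02 to -0.23, that of Padi6 being 0.29 (adjusted p = 0.997).

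At MII none of the 8 was called either, where edgeR called 26 of 10028 genes (0.259%), 25 of them lower in NSN-MII, with 941 at an unadjusted p under 0.05. DESeq2 called 208 genes and none of the 8, and limma on FPKM called 4 and none of the 8. All 8 overlapped between SN-MII and NSN-MII, while 10.2% of all genes did not. Nlrp2 had the largest difference. Its CPM was 175, 202, 164 and 134 in the SN-MII oocytes and 299, 406 and 72.6 in the NSN-MII oocytes, so that 2 NSN-MII oocytes lay above and 1 below all SN-MII oocytes. The log2 difference was 0.63 (SE 0.41, adjusted p = 0.707). Without the third NSN-MII library Nlrp2 was called as higher in NSN-MII, at 1.07 (adjusted p = 0.0137), in a fit that called 233 of 10420 genes, and it was the only one of the 8 called there. The oocyte left out was the NSN-MII oocyte with the low value, so this call rests on the 2 high NSN-MII oocytes.

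The third NSN-MII oocyte decided the sign of 5 other differences at MII. With it, the log2 difference of NSN-MII minus SN-MII was -0.30 for Nlrp5, -0.31 for Tle6, -0.45 for Khdc3, 0.05 for Nlrp4f and 0.26 for Zbed3, and without it 0.02, 0.12, 0.02, -0.45 and -0.0049, none of them called. In that oocyte Tle6 was at 140.3 CPM, where the other 6 MII oocytes had 439 to 758, and Nlrp5 at 421 CPM, where they had 733 to 1142. Its Nlrp4f was at 3764 CPM, where they had 1549.95 to 2509, and its Zbed3 at 41717 CPM, where they had 20536 to 32375. For each of the 8 genes it was thus further from GV than any other MII oocyte. Against the median of the other 6 it was 7.12-fold lower in Khdc3, 4.49-fold lower in Tle6, 2.60-fold lower in Nlrp2 and 2.59-fold lower in Nlrp5, and only 1.44-fold lower in Padi6.

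The genes differed in how alike oocytes of a group were. Within groups at GV, the SD of log2 CPM was 0.12 for Nlrp2, 0.15 for Padi6, 0.16 for Tle6 and 0.17 for Nlrp5, where the median of the 1909 genes with a mean of at least 100 CPM was 0.27. It was 0.26 for Zbed3, 0.33 for Ooep, 0.34 for Nlrp4f and 0.58 for Khdc3. Without the second NSN GV library the median of these 1909 genes was 0.24, and that of Ooep was 0.19. Zbed3 (0.32), Khdc3 (0.60) and Nlrp2 (0.14) were then higher. Nlrp5 (0.12), Tle6 (0.14), Padi6 (0.14) and Nlrp4f (0.34) were lower or nearly the same. At MII the SD was 1.29 for Khdc3, 0.95 for Nlrp2, 0.93 for Tle6, 0.61 for Ooep, 0.56 for Nlrp5, 0.50 for Nlrp4f, 0.37 for Zbed3 and 0.24 for Padi6, while the median of the abundant genes was 0.25. Without the third NSN-MII library, an alternative chosen after seeing the data, all 8 values were smaller. That library was the lowest or highest at MII for each of the 8 genes, so smaller values were to be expected from leaving it out. Without it the values were 0.70 for Khdc3, 0.28 for Nlrp2, 0.24 for Tle6, 0.40 for Ooep and 0.24 for Nlrp5. Padi6 was at 0.17, and the median of the abundant genes was 0.16. Nlrp4f was at 0.13 and Zbed3 at 0.24, both below their GV values with or without the second NSN GV library.

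For each gene the most alike pattern over the 13 libraries was sought among the 11375 genes, as the smallest root mean square difference of centred log2 CPM. It was Slc6a20b for Nlrp5 (0.17), Glrx for Ooep (0.19), Wdr91 for Tle6 (0.20), Ptpn18 for Khdc3 (0.52), Vps4a for Padi6 (0.17), Usp14 for Nlrp2 (0.23), Nelfa for Nlrp4f (0.18) and Klf17 for Zbed3 (0.14). No gene of the 8 was the nearest of another. The nearest pairs within the 8 were Ooep with Nlrp2 (0.40) and Tle6 with Padi6 (0.43), and 165 genes were closer to Ooep than Nlrp2 was and 110 closer to Tle6 than Padi6 was. These values describe likeness in libraries that share depth and stage.

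Other maternal genes were read from lists by the same comparison of MII with GV. Of 9 tested genes of the cytoplasmic lattice and UHRF1 partners, 3 rose, 4 fell and 2 were not called (2 rose and 6 fell with plain library totals), where 31.7% of all genes were higher and 36.9% lower. Skp1a, an SCF ubiquitin ligase subunit, fell by 1.38 on the log2 scale, Nlrp14, which holds UHRF1 in the cytoplasm, by 0.85 and the F-box gene Fbxw18 by 0.95, and Ube2d3, a ubiquitin-conjugating enzyme, rose by 1.04. Of 19 tested maternal effect genes outside the complex, 11 rose, 6 fell and 2 were not called (8 and 8 with plain library totals). Zar1l, an RNA-binding protein of the oocyte, fell by 4.67, which is further than Khdc3, and Npm2, a nuclear chaperone, by 2.25 and Ube2a, a ubiquitin-conjugating enzyme, by 2.68, while Btg4, an adaptor of mRNA deadenylation, rose by 1.29. The median log2 fold change was -0.36 and 0.61 in these lists.

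The families of the 8 genes moved in both directions, as did all genes tested, of which 31.7% were higher and 36.9% lower. The lists are small, and no departure from these shares is read from them. Of 9 other oocyte Nlrp genes tested, 5 rose, 2 fell and 2 were not called (3 and 2 with plain library totals), with a median of 0.51. Nlrp4g (0.85) and Nlrp9c (0.64) rose, and Nlrp14 (-0.85) and Nlrp9b (-0.95) fell. In the KHDC1 and DPPA5 family, relatives of Ooep and Khdc3, Khdc1b rose by 1.27 and Khdc1c by 0.51, the latter not called under the other scalings, Dppa5a fell by 2.67, and Khdc1a was not called (0.15). Of the 7 tested paralogs of TLE6, PADI6 and ZBED3, 2 rose and 2 fell: Zbed4 (1.17), Tle4 (0.68, not called with plain library totals), Aes (-2.53) and Padi1 (-3.07). Padi1 and Aes were at the limit of detection at MII, at no more than 0.595 and 1.07 CPM, so their folds depend on the prior count. None of the named genes of these families was called between NSN and SN oocytes at GV, nor at MII, where Aes and Padi1 did not pass the filter and were not tested. Of all genes tested, 0% were called at GV and 0.259% at MII. Of the 12 oocyte markers, 4 rose and 5 fell. H1foo (1.22), Kit (1.14), Gdf9 (0.83) and Oosp1 (0.63) rose. Among those that fell were Zp2 (-3.27), Zp3 (-3.84), Nobox (-2.39) and Figla (-4.25). Of the 7 tested cumulus and granulosa markers, Cyp19a1 (1.04) and Kitl (1.26) rose, Cyp11a1 (-3.34) fell and Star (1.73, adjusted p = 0.0597) was not called. Cyp11a1 was at the limit of detection too, with 0.379 to 5.75 CPM at GV and 0 to 0.394 CPM at MII. The stages overlapped for Cyp11a1, and its fold also depends on the prior count.

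Levels of the genes next to the 8 on their chromosomes differed widely. Ooep lies on chromosome 9 (78376109 to 78378725) beside Dppa5a (78367052 to 78368177), an RNA-binding KH protein, which had 766 to 2164 FPKM at GV and 14.7 to 324 FPKM at MII, lowest in the third NSN-MII library. Rsl24d1, a ribosome biogenesis gene beside Khdc3 on chromosome 9, had 125 to 154 FPKM at GV and 7.33 to 35.7 FPKM at MII. Padi4, the neighbour of Padi6 on chromosome 4, had at most 0.32 FPKM in any library, and Tle2, the neighbour of Tle6 on chromosome 10, at most 0.95 FPKM. Nlrp4e, next to Nlrp5 on chromosome 7, had 41.6 to 119 FPKM. Of other genes looked up with these, Rcc2 had 3.51 to 4.84 FPKM at GV and 6.74 to 12.2 FPKM at MII. Snora47 and Gm22661 were at 0 FPKM in every library. Reads cannot be assigned by strand, and 2 of the 8 genes overlap another of the genes looked up. The whole annotation was not searched for overlaps. Gm5065 runs opposite to Nlrp2 and overlaps its first bases (chromosome 7, 5350537 to 5351035), with 70.0 to 125 FPKM at GV and 109 to 152 FPKM at MII, where Nlrp2 had 17.6 to 118 FPKM. Gm20509 overlaps Khdc3 on the same strand (chromosome 9, 73102470 to 73104438) and had 0 to 3.23 FPKM. Both have FPKM values only, and how reads were shared between them and these genes is uncertain.

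Promoters were taken from RefSeq (GRCm38.p6, 250 bases before to 50 bases after each start), in which all 8 genes had at least 1 and 12 in all. The E-box CANNTG, which reads the same on both strands, was in 11 of these 12 promoters and in 72.3% of all 32851, and Nlrp2 was the gene without it. TATAAA, on either strand, was in 2 of the 12, 1 each of Nlrp5 and Zbed3, and in 13.6% of all promoters.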

How the data were processed

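Single-oocyte cDNA was made by SMART-seq2 and sequenced on the Illumina HiSeq X-10. Per the labels, the authors used Trim Galore 0.4.4, Bowtie2 2.3.5, RSEM 1.2.28 and DESeq2 1.20.0 with the build mm10. The deposited expected counts are RSEM estimates, which share out reads of similar genes, so 15.1% to 20.1% of the values above 0 in a library were not whole, and FPKM values were deposited by the authors in 1 table of all libraries. No column was left unmapped.

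Expected counts were rounded, filtered with filterByExpr and given TMM factors with edgeR 4.0.16 under R 4.3.3. CPM values use these factors. Types were tested at each stage apart, and stages and the interaction in 1 fit of all libraries. A call is a Benjamini-Hochberg adjusted p under 0.05 over all genes tested. DESeq2 1.42.0 and limma 3.58.1 on log2(FPKM + 1), over genes whose mean FPKM reached 1, were alternatives. Ratios used a pseudocount of 0.5. The common biological coefficient of variation was 0.352 at GV, 0.344 at MII and 0.364 over all libraries, common to all genes tested. The spread without the library that stood apart at each stage was added after seeing the data. Steps were tested on simulated data.

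The 8 genes and all lists were chosen with earlier results of these data known. The genes named were the 8, up to 4 of each list with the lowest p between stages, the most alike gene of each and listed neighbours. Neighbours outside the lists (Gm5065, Gm20509, Rsl24d1, Rcc2, Snora47, Gm22661) and the marker genes named by level were chosen after their values were seen. So were the oocyte markers named as rising. Raw reads were not analysed here.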

Additional observations from a re-analysis of the deposited data

Results flagged for a closer look

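A gap test (Dixon's, 95%) asked for each of the 8 genes whether the highest or the lowest oocyte lay apart from the others among the 4 SN-MII, the 6 GV and the 7 MII oocytes, 24 sets in all, of which chance passes about 1 in 20. In 1 of them an oocyte did: in Nlrp5, the first SN-MII oocyte was lowest of the 4 with 733 CPM, where the next had 1089 CPM. Its Khdc3 was also the lowest of the 4, at 10.7 CPM.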

How the results depend on the processing

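Calls of the stage comparison held in every alternative for 7 genes. For Nlrp4f the direction held and the call did not: beside the fits given above, it was lost with DESeq2's size factors (adjusted p = 0.052), under a replicate block (log2 fold change 0.45, adjusted p = 0.0639) and with a 1.5-fold minimum, and kept with DESeq2, no filter, thinned counts and limma on FPKM. The number of the 8 called was 7 to 8 between stages when a library was left out, 7 to 8 within NSN and 7 within SN oocytes. Between NSN and SN it was 0 in all fits, except 0 to 1 at MII, where leaving out the third NSN-MII oocyte gave Nlrp2 a call. All ratios to Nlrp5 kept their sign and call.

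Signs of small, uncalled differences turned. Leaving out a library gave log2 differences at GV of -0.23 to 0.17 for Ooep, -0.38 to 0.52 for Khdc3, -0.058 to 0.096 for Nlrp2 and -0.11 to 0.15 for Zbed3. At MII they were -0.22 to 0.44 for Ooep, -0.57 to 0.017 for Nlrp5, -0.62 to 0.12 for Tle6, -0.88 to 0.024 for Khdc3, -0.45 to 0.26 for Nlrp4f and -0.0049 to 0.44 for Zbed3. In the interaction they were -0.26 to 0.41 for Ooep, -0.24 to 0.58 for Nlrp4f and -0.035 to 0.43 for Zbed3. The replicate block turned Ooep to -0.012 at GV, -0.16 at MII and -0.11 in the interaction and Nlrp4f to -0.011 at MII, and limma on FPKM turned Nlrp4f to -0.081 at MII. The cause was not tested. Nothing says whether replicate numbers pair the oocytes. Deviations of same-numbered libraries from their group means correlated at -0.419 to 0.206. Differently numbered libraries were not compared, so these values cannot decide whether the numbers pair oocytes. The replicate block left 7452 genes called between stages and 2 between types at MII. A different number of genes was called at MII by DESeq2 (208), without the filter (89), in 1 fit of all libraries (69), with library totals (16) and by limma (4). With 3 or 4 oocytes per group, differences between types under the spread were not detectable.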
